A study of Petunia x hybrida with 8 samples.

Results

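Clusters of closely spaced peaks were examined in the list of sites recovered from petunia petals by chromatin immunoprecipitation (ChIP) of pODO1 material. A summit is the base of a peak that the peak caller marked as its highest point. Peaks were joined into a chain when neighbouring summits lay at most 1000 bases apart, and the peaks under 500 bases wide ("narrow") were kept where a chain held 3 or more of them. The search covered the 1284 scaffolds that carry at least 1 gene ID of the count table and whose last pODO1 peak ends at base 100000 or later. It found 7739 clustered peaks in 2269 clusters, which is 8.84% of the 87534 narrow peaks on those scaffolds and 7.90% of all 98009 pODO1 peaks. The clustered peaks were thus selected on their measured positions and widths, and the pODO1 values below describe them without a test.

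The material was corolla, the whole of a flower's petals, from Petunia x hybrida. Chromatin was recovered with an antibody against GFP in 1 library named pODO1 and 1 library named 35S, and polyadenylated RNA was sequenced in 3 libraries named odo1i and 3 of wild type (replicates 1, 2 and 4 of each). The label pODO1 is read here as a GFP-carrying ODO1 under its own promoter, 35S as the same protein under the strong viral 35S promoter, and odo1i as plants with ODO1 silenced. The labels spell out none of these and give no plant age, line or time of sampling. Each construct has 1 library and 1 peak list, so no replicate check of the ChIP values exists. The lists carry no read depth, and the control used for peak calling is not given in the sources used here. Gene IDs carry no names in the files, so neither the level of ODO1 nor markers of the corolla were analysed here.

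Floral scent in petunia is regulated by ODO1, also called ODORANT1, a transcription factor of the R2R3-MYB family. It is known for activating genes that supply phenylalanine and its precursors to the benzenoid and phenylpropanoid volatiles of the petals. MYB proteins of this type bind short DNA elements, so a promoter or a repeated sequence can hold several sites next to each other. In a ChIP experiment such neighbouring sites appear as separate narrow peaks only when they lie farther apart than the length of the sheared fragments.

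Most clusters were small. Of the 2269 clusters, 1662 (73.2%) held 3 peaks, 410 (18.1%) held 4 and 134 (5.91%) held 5. The 197 clusters of 5 or more held 1113 clustered peaks, 14.4% of the total, and the 13 clusters of 8 or more held 126. The largest had 13 peaks. A cluster spanned a median of 1451 bases from the first base of its first peak to the last base of its last (quartiles 1185 and 1787, range 546 to 6054), and all clusters together covered 0.308% of the bases up to the last peak of each scaffold. A further 24 peaks of 500 bases or more lay inside 23 of the clusters and were not counted as clustered peaks.

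The same rule on the same scaffolds gave more clusters from the 35S list when all deposited peaks were used. It found 10397 clustered 35S peaks in 2976 clusters, which is 11.2% of 92589 narrow 35S peaks. The size classes ran in the same order, with 2096, 538 and 214 clusters of 3, 4 and 5 peaks, and the largest 35S cluster had 16. The order turned with stricter peaks, to 1138 clustered pODO1 peaks against 1037 35S peaks at a −log10 q of at least 5, and to 1960 against 780 at a fold enrichment of at least 4. The deposited lists differ in length and have 1 library each, so neither construct is shown to cluster more.

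**Figure D1:**
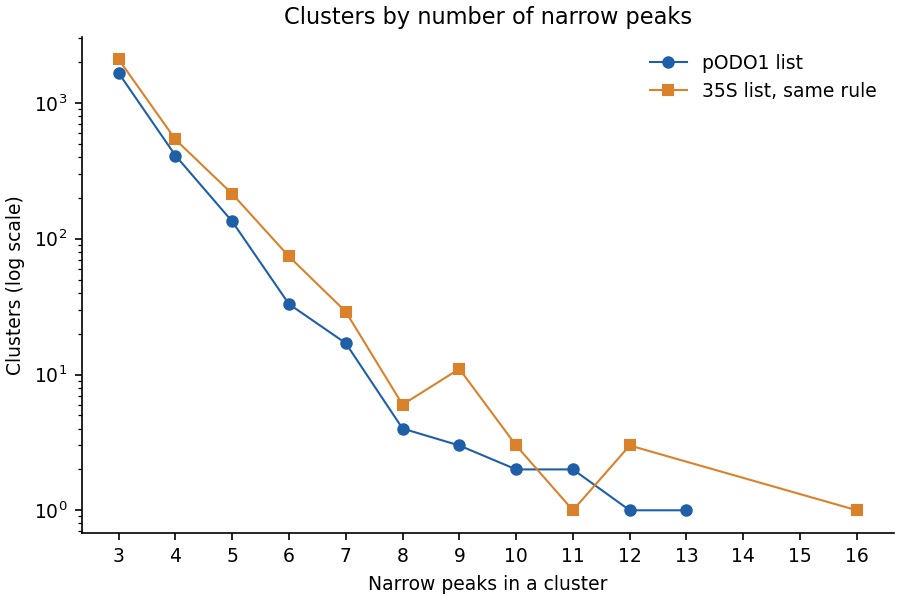
Number of clusters (vertical, log scale) by the number of narrow peaks in a cluster (horizontal) in the pODO1 list and, by the same rule on the same scaffolds, in the 35S list; sizes with no cluster have no point. Both lines fall steeply, pODO1 with 1662 clusters of 3 and 134 of 5 and 35S with 2096 and 214.

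An expectation was computed for narrow pODO1 peaks spread evenly at random between the first base and the last peak of each scaffold. Under it 1738 narrow pODO1 peaks, 1.99% of the narrow ones, would be expected in such chains. The 7739 counted were 4.45 times that number. The 35S list gave 5.36 times its own expectation of 1941 peaks. This expectation comes from a formula and has no test. Even placement also ignores that peaks cannot overlap. It places narrow peaks only, while the counted chains may be bridged by a wide peak. With wide peaks removed before chaining, 7708 clustered pODO1 peaks were counted.

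Within clusters, neighbouring summits lay a median of 566 bases apart (quartiles 380 and 765, range 140 to 1000, 5456 distances), and 14 more distances were bridged by a wide peak. The most frequent distances were those of 300 to 400 bases, with 864 (15.8%). The 35S clusters had a median of 548 bases and 16.3% of 7406 distances at 300 to 400 bases. The pODO1 chains of only 2 narrow peaks had a median of 598 bases, with 13.7% of 8103 distances at 300 to 400. Few summits were closer than 200 bases in any of these sets, 1.37% in pODO1 clusters, 1.61% in 35S clusters and 1.33% in chains of 2.

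**Figure D2:**
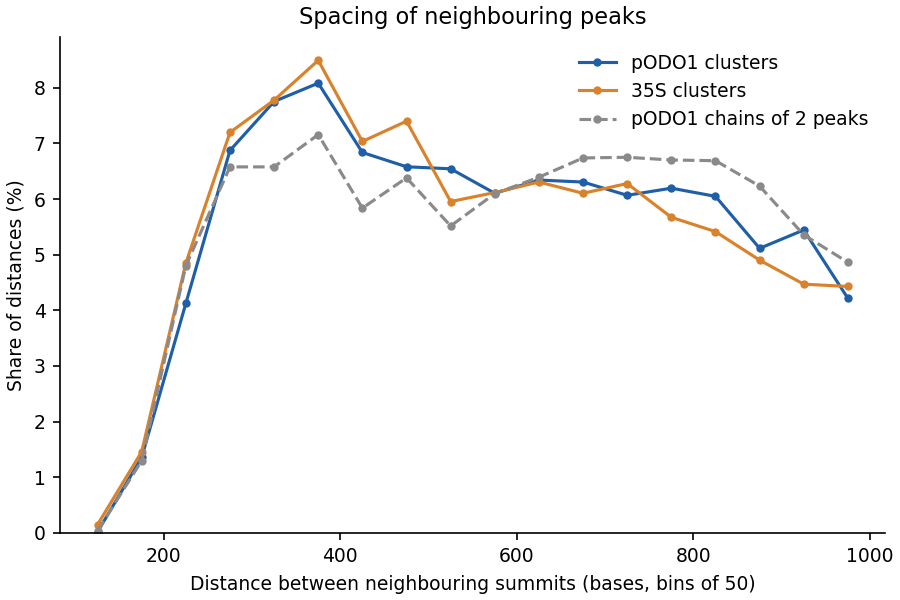
Share of distances between neighbouring summits (vertical, percent) in bins of 50 bases (horizontal, bases) for pODO1 clusters, 35S clusters and pODO1 chains of 2 peaks. The lines climb steeply from 150 bases, each is highest at 350 to 400 bases (8.08%, 8.49% and 7.16%), and the chains of 2 lie above both kinds of cluster from 650 to 900 bases.

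The limit of 1000 bases did not fall at a natural break. There were 640 neighbouring summits 951 to 1000 bases apart and 680 that were 1001 to 1050 bases apart. Clustered peaks with the summit before them 951 to 1000 bases away had a median fold enrichment of 4.28 (n = 230), and narrow peaks just outside, with the summit before them 1001 to 1050 bases away, had a median of 4.18 (n = 639). At the width limit, 40 clustered peaks were 450 to 499 bases wide with a median of 4.98-fold, and 9 peaks of the same chains were 500 to 549 bases wide with a median of 6.09-fold.

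Clustered peaks were about as strongly enriched as other narrow peaks. Fold enrichment is the authors' deposited ratio of each peak, read as signal over the local background of the peak caller. Its median was 4.23 over the clustered peaks (quartiles 3.58 and 4.99, range 1.84 to 14.5) and 4.28 over the 79795 other narrow peaks of the same scaffolds (quartiles 3.63 and 4.95, range 1.56 to 24.0). The deposited −log10 q, a measure of confidence in each peak, had a median of 4.48 against 4.08, and the median width was 141 against 133 bases. The single strongest narrow peak of these scaffolds, at 24.0-fold, lay outside clusters, while the share of peaks reaching 8-fold was higher among clustered ones. Of the clustered peaks 119 (1.54%) reached 8-fold, against 794 (0.995%) of the others, and 13 (0.168%) reached 10-fold, against 112 (0.140%). Median fold enrichment stayed between 4.14 and 4.28 for chains of 1, 2, 3, 4, 5 and 6 or more narrow peaks, while the median −log10 q was 3.99, 4.27, 4.34, 4.69, 4.64 and 5.26 in that order. The same fold value often recurs in the list, so these medians rest on coarse steps, with 47.9% of clustered peaks and 64.7% of the others at a value that at least 100 peaks share.

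Peaks of one cluster differed from each other nearly as much as peaks of different clusters. Of the variance of log2 fold enrichment over clustered peaks, 8.78% lay between clusters, with an SD of 0.36 within clusters and 0.11 between them on the log2 scale. The strongest peak of a cluster had a median of 1.51 times the fold enrichment of its weakest (quartiles 1.32 and 1.81, highest 4.41), and in 353 clusters (15.6%) the ratio was 2 or more. The strongest peak had no preferred place. In the 1643 clusters of 3 with a single strongest peak it was the first in 548, the middle one in 560 and the last in 535.

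The 35S list was not used to choose the clusters and gives a separate readout of the same sites. At least 1 base was shared with a 35S peak by 4311 of the 7739 clustered pODO1 peaks (55.7%, with a 95% Wilson interval of 54.6 to 56.8). Of the other narrow pODO1 peaks, 33354 of 79795 (41.8%, 41.5 to 42.1) did. The difference was 13.9 percentage points (12.7 to 15.1), and it was 14.0 points when the other peaks were taken only from the 818 scaffolds that carry a cluster. With only 35S peaks of at least 4-fold counted, 23.3% of clustered and 17.1% of other narrow peaks overlapped one, a difference of 6.20 points. These intervals cover counting error only, and peaks of 1 library are not replicates, so no p-value is given. Clustered peaks had somewhat higher −log10 q and width than the others (above), and the part of these in the difference was not tested.

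The share was higher in longer chains. It was 40.3% for solitary narrow peaks (n = 63525), 47.7% in chains of 2 (n = 16270), 54.2% in clusters of 3 (n = 4986), 56.1% in clusters of 4 (n = 1640), 59.7% in clusters of 5 (n = 670) and 65.0% in clusters of 6 or more (n = 443; 60.5 to 69.3). The intervals of clusters of 3 and of 4 overlap, and so do those of 4 and 5 and of 5 and 6 or more. The difference was also present at each level of enrichment. In the lowest quintile of fold enrichment (1.56 to 3.49) 43.5% of clustered and 32.9% of other peaks overlapped a 35S peak, and in the highest quintile (5.20 to 24.0) 75.4% and 60.3% did. The differences in the 5 quintiles were 10.6, 14.4, 15.3, 14.4 and 15.1 points from the lowest to the highest. Among peaks of 10-fold or more, all 13 clustered ones and 107 of the 112 others overlapped a 35S peak. The same comparison in the other direction gave a smaller difference, with 48.7% of clustered 35S peaks and 39.8% of other narrow 35S peaks overlapping a pODO1 peak.

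**Figure D3:**
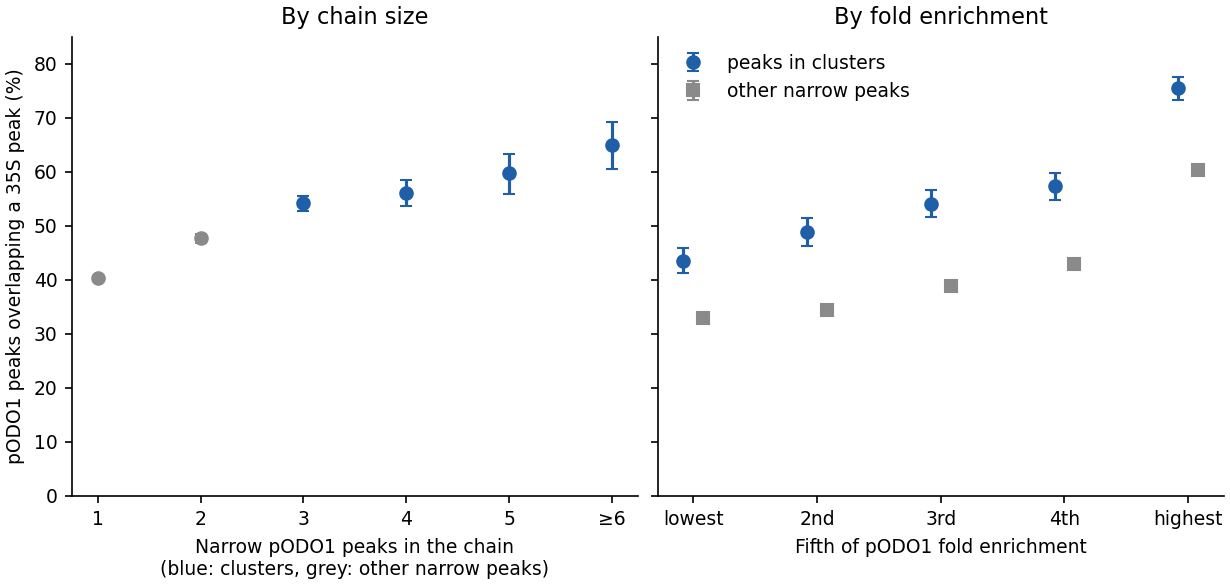
Share of narrow pODO1 peaks that overlap a 35S peak (vertical, percent, with 95% Wilson intervals) by the number of narrow peaks in the chain (left) and by quintile of pODO1 fold enrichment (right). The share climbs along the chain sizes to 65.0%, and peaks in clusters lie above other narrow peaks in each quintile.

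Overlap was mixed within clusters. Among clusters of 3, 311 (18.7%) had all 3 peaks overlapping a 35S peak, 618 (37.2%) had 2, 534 (32.1%) had 1 and 199 (12.0%) had none. Over all sizes, every peak overlapped in 386 clusters (17.0%) and none did in 225 (9.92%), of which 201 held no 35S peak anywhere in their span. A clustered peak overlapped a 35S peak in 59.1% of cases (57.4 to 60.8, 1804 of 3052) where the peak before it in the cluster did, and in 51.4% (49.5 to 53.4, 1244 of 2418) where it did not.

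Where the lists met, the summits lay close together. The summit of a clustered pODO1 peak was a median of 27 bases from that of the 35S peak it overlapped (quartiles 10 and 68), and 83.0% were within 100 bases, against a median of 29 bases and 85.4% for other narrow peaks. The 35S peaks lay on the single pODO1 peaks of a cluster more often than between them. Of the summits of clustered peaks 48.8% (47.7 to 49.9) fell inside a 35S peak, whereas 7.71% (7.04 to 8.45) of the midpoints between neighbouring clustered peaks did. That midpoint share was above the 3.31% and 3.34% found 290 bases before and after the summits of other narrow peaks and above the 1.23% of all bases that 35S peaks cover. The shares are not matched for distance. Each midpoint has a peak on both sides at a distance that varies, while the bases beside other peaks lie at a fixed 290. The spans of pODO1 clusters held 1.29 35S peaks per 1000 bases, against 0.0805 over the scaffolds as a whole. Each span starts and ends on a pODO1 peak, and 41.8% of other narrow pODO1 peaks also overlapped a 35S peak. No matched density was computed around other narrow peaks, so this contrast cannot be read as particular to clusters.

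Clustered pODO1 peaks that overlapped a 35S peak had a median pODO1 fold enrichment of 4.42, against 3.98 for those that did not. The same medians were 4.51 and 4.11 among other narrow peaks. At the shared sites the median 35S fold enrichment was 3.80 for clustered and 3.78 for other peaks. Across the 4311 shared clustered sites the log2 fold enrichments of the 2 lists had a Pearson r of 0.497 and a Spearman rho of 0.463, against 0.459 and 0.409 across the other shared sites. Sites of 1 library are not independent replicates, so these coefficients only describe the lists.

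A cluster in one list was not always a cluster in the other. Of the pODO1 clusters 748 (33.0%, 31.1 to 34.9) shared at least 1 base with a 35S cluster, and of the 35S clusters 750 of 2976 (25.2%, 23.7 to 26.8) shared one with a pODO1 cluster. The share was 28.3% for pODO1 clusters of 3, 37.1% for clusters of 4 and 63.5% (56.5 to 69.9) for those of 5 or more, and 11 of the 13 clusters of 8 or more shared one. The overlapped 35S peak was itself in a 35S cluster for 2043 (47.4%) of the 4311 shared clustered peaks.

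The 5 clusters with most peaks lay on only 2 scaffolds. On Peaxi162Scf00553 the largest cluster ran from base 9716 to 15769, with 13 peaks of 3.91 ± 1.04-fold (mean ± SD over its peaks), and 10 of them overlapped a 35S peak. Its strongest peak, at 12035 to 12185, had 6.65-fold enrichment and its weakest 2.41. The second cluster on that scaffold, from 26621 to 31252, had 11 peaks of 4.65 ± 1.41-fold, led by the peak at 26621 to 26775 with 7.46-fold, and 9 overlapped. On Peaxi162Scf00346 a cluster of 12 peaks from 1189274 to 1194430 averaged 3.84 ± 0.943-fold, led by a peak at 1189274 to 1189441 with 5.22-fold, and 7 overlapped. A cluster of 11 from 1225411 to 1230040 averaged 3.67 ± 0.759-fold with 9 overlapping, and its strongest peak, at 1225411 to 1225525, had 4.72-fold. A cluster of 10 from 1231410 to 1235823 averaged 4.46 ± 0.864-fold with 9 overlapping, and its strongest, at 1231723 to 1231830, had 6.32-fold. These very large clusters were thus made of peaks of ordinary fold enrichment, and each shared bases with a 35S cluster. Their −log10 q was mostly above the median of 4.48 over all clustered peaks. It ran from 2.20 to 41.7 in the cluster of 13 and from 2.94 to 12.9 in that of 12. The cluster of 11 on Peaxi162Scf00553 had 4.57 to 27.2 and that on Peaxi162Scf00346 had 2.47 to 13.4. In the cluster of 10 the lowest value was 5.15.

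The 5 clusters of highest mean fold enrichment had 3 or 5 peaks. The highest was on Peaxi162Scf00917 from 403597 to 404886, where the 3 peaks had 8.24-, 8.36- and 8.36-fold, all overlapping 35S peaks of 4.17-, 6.31- and 4.94-fold. It was even, while the next 2 were carried by a single peak. On Peaxi162Scf01242 (243628 to 245367) the 3 peaks had 4.28-, 14.3- and 5.52-fold, and the 2 strongest overlapped 35S peaks of 10.7- and 4.94-fold. On Peaxi162Scf00101 (1388765 to 1389649) they had 3.29-, 5.70- and 14.5-fold, and the 2 strongest overlapped 35S peaks of 4.92- and 9.17-fold. The peak at 1389378 to 1389649 of that cluster was the strongest clustered peak of all. On Peaxi162Scf00780 (27193 to 30089) 5 peaks had 5.83 to 8.36-fold and 3 overlapped. On Peaxi162Scf00163 (1047419 to 1050635) 5 peaks had 4.54 to 12.9-fold, and all overlapped 35S peaks, of which there were 3 in the span because 3 pODO1 peaks lay on one 35S peak of 6.01-fold.

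The largest cluster with every peak in both lists was on Peaxi162Scf00006 from 39918 to 44559. Its 9 pODO1 peaks had 3.82 to 8.36-fold and the 35S peaks they overlapped 2.06 to 6.88-fold. The strongest pODO1 peak there, at 42961 to 43448, lay on a 35S peak of 3.78-fold, so the order of strength was not the same in both lists. The next 4 such clusters had 6 peaks each. They lay on Peaxi162Scf00346 at 1181913 to 1184243 (5.09 ± 1.54-fold) and 1216243 to 1218505 (3.28 ± 0.407-fold), on Peaxi162Scf00323 at 817869 to 820182 (4.51 ± 1.28-fold) and on Peaxi162Scf00041 at 1918394 to 1920838 (4.47 ± 0.917-fold).

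Other clusters had no counterpart with 35S. The largest 4 of these had 5 peaks each. On Peaxi162Scf00494 (736725 to 739413) the pODO1 peaks had 4.94-, 5.21-, 4.06-, 3.43- and 6.60-fold, and a single 35S peak of 3.10-fold lay in the span without touching any of them. No 35S peak lay in the span of the clusters on Peaxi162Scf00099 (1875883 to 1878918, 4.52 ± 1.27-fold), on Peaxi162Scf00009 at 3390334 to 3392442 (3.73 ± 0.584-fold) and at 2979652 to 2982754 (3.40 ± 0.719-fold), and on Peaxi162Scf00343 (467080 to 468988, 4 peaks, 5.84 ± 1.49-fold). The highest fold enrichment in these 5 clusters was 7.81, at 467294 to 467476 of Peaxi162Scf00343. A site with no 35S peak is one that the authors' 35S list does not hold, which is not a measured absence of binding.

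**Figure D4:**
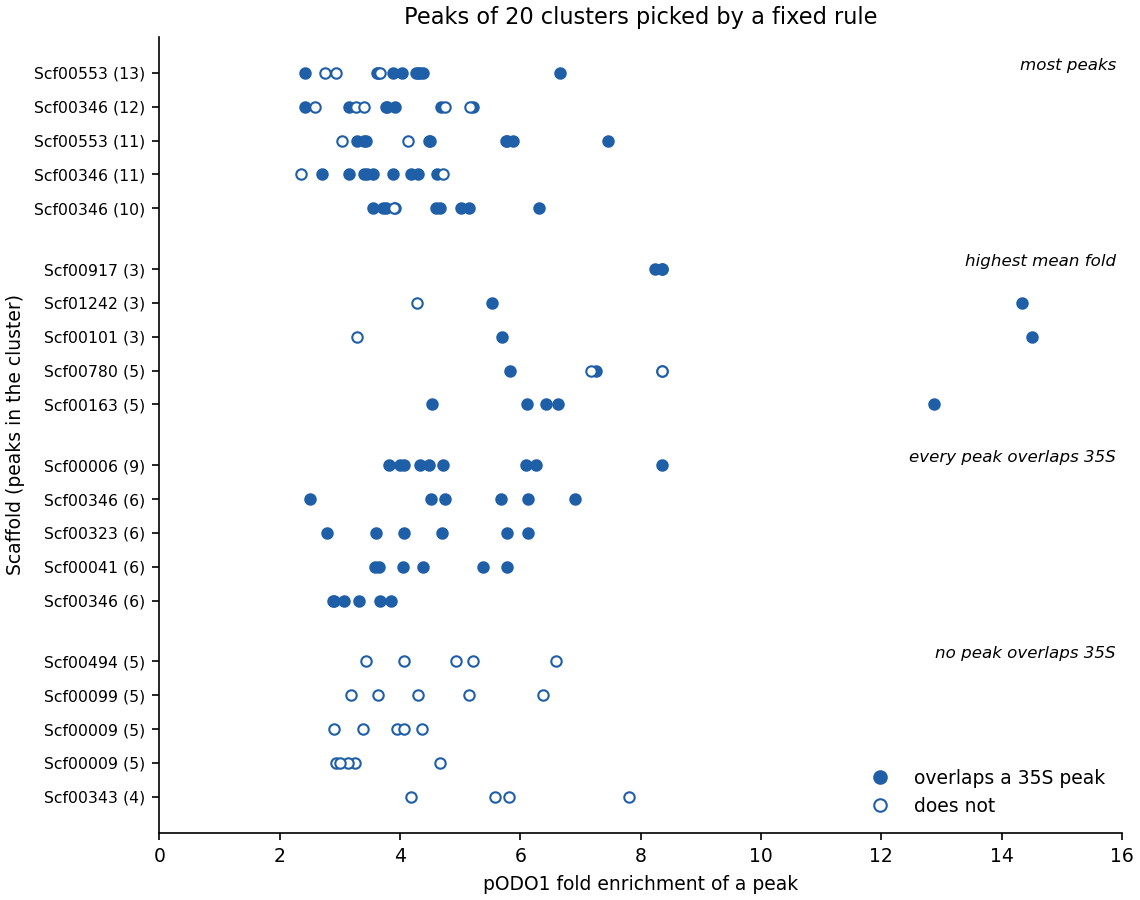
pODO1 fold enrichment (horizontal) of each peak of 20 clusters (vertical, scaffold and number of peaks), filled where the peak overlaps a 35S peak and open where it does not. The clusters with most peaks lie between 2.35 and 7.46-fold, and the highest single peaks, 14.3 and 14.5-fold, belong to clusters of 3.

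Clusters were mostly far apart, with a few long rows. Between neighbouring clusters of a scaffold the median gap was 163370 bases (1451 gaps, quartiles 43976 and 360092), and 108 gaps (7.44%) were 5000 bases or less. Joining clusters across such gaps gave 3 rows with at least 20 clustered peaks, a limit set after their values were seen. The longest, on Peaxi162Scf00346 from 1210660 to 1250689, held 9 clusters and 61 clustered peaks in 40030 bases. It had 1.65 pODO1 peaks per 1000 bases, against 0.171 over that scaffold, and 50 (82.0%) of its clustered peaks overlapped a 35S peak. Its pODO1 peaks had 2.35 to 6.32-fold enrichment and the 62 35S peaks in it 1.92 to 4.73-fold. The other 2 rows were on Peaxi162Scf00553, from 50 to 18949 with 26 clustered peaks, of which 22 overlapped a 35S peak, and from 26621 to 38855 with 23, of which 18 did.

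Spacing was regular in parts of these rows. In the row on Peaxi162Scf00346, 27 of 65 pODO1 distances (41.5%) and 19 of 61 35S distances (31.1%) were 320 to 400 bases. On the scaffolds other than these 2, 12.2% of pODO1 distances in clusters (650 of 5326) and 13.1% of 35S distances (952 of 7266) were. The bases differ. Row distances run between all neighbouring summits, also from one cluster to the next, while those on other scaffolds lie within clusters and reach at most 1000 bases. In the 2 rows on Peaxi162Scf00553 the pODO1 counts were 6 of 26 and 7 of 22, and the 35S counts 6 of 25 and 9 of 19. The clearest run was in the cluster of 12 at 1189274 to 1194430 of Peaxi162Scf00346, outside the row. Its 11 distances were, in order, 411, 756, 351, 355, 360, 354, 347, 347, 371, 696 and 692 bases. Of these 7 lay between 320 and 400 bases and 3 between 660 and 800. In the row on Peaxi162Scf00346 the window of 660 to 800 bases held 10 of 65 pODO1 distances (15.4%) and 10 of 61 35S distances (16.4%). On the other scaffolds it held 17.6% and 17.1% of distances in clusters. In the 2 rows on Peaxi162Scf00553 the same window held 5 of 26 and 3 of 22 pODO1 distances, and 3 of 25 and 0 of 19 35S distances. As the bases differ, whether distances gather in that window in the rows cannot be judged from these shares. The windows of 320 to 400 and 660 to 800 bases were chosen after these distances were seen, so the counts are a description. Whether the sequence repeats with that period was not analysed here, as no genome was used.

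**Figure D5:**
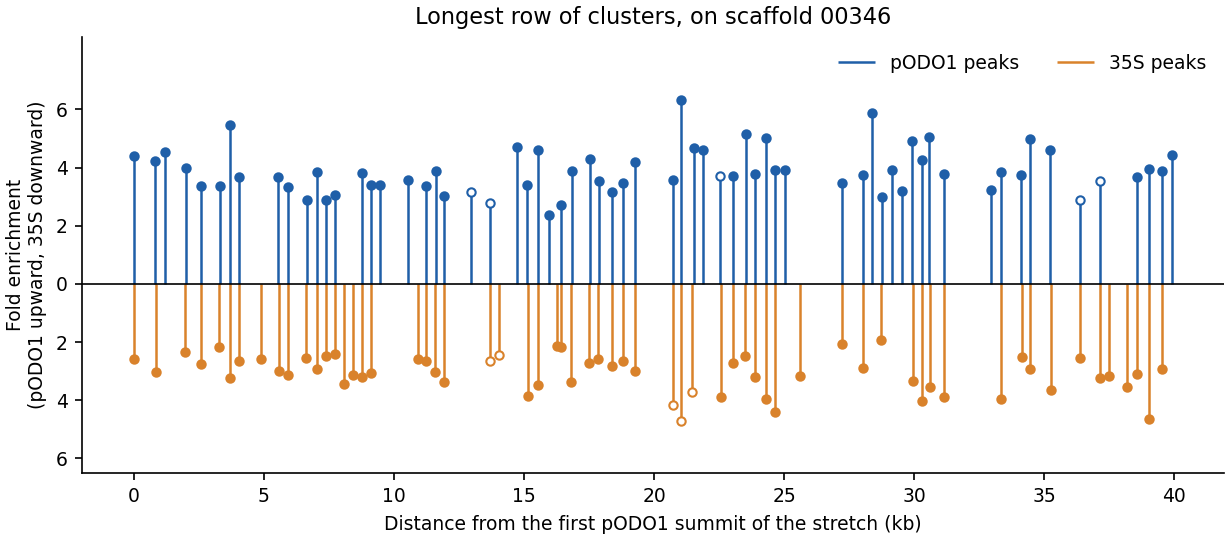
Fold enrichment (vertical, pODO1 upward and 35S downward) of all peaks by distance from the first pODO1 summit (horizontal, kb) in the longest row of clusters on Peaxi162Scf00346; filled points are narrow peaks in a cluster of their own list and open points are other peaks. Most pODO1 peaks stand opposite a 35S peak, with pODO1 values of 2.35 to 6.32 and 35S values of 1.92 to 4.73.

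Both scaffolds carried their clusters at one end. On Peaxi162Scf00346, 92 of 98 clustered peaks and 14 of 16 clusters lay in the last 100000 bases before the last peak, and on Peaxi162Scf00553, 49 of 58 clustered peaks lay in the first 100000. In those ends 81.5% and 81.6% of clustered peaks overlapped a 35S peak. Without both scaffolds 7583 clustered peaks remained, and 55.2% overlapped a 35S peak, 13.4 points above the other narrow peaks. Over all scaffolds clusters were not gathered at the ends, with 10.4% in the first 10% and 11.6% in the last 10% of a scaffold's length, against 9.59% and 11.9% of other narrow peaks.

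Clusters were found on 818 of the 1284 scaffolds, with a median of 2 and at most 18 per scaffold, and 309 scaffolds had 1. The scaffolds with most clusters were Peaxi162Scf00012 (18 clusters, 66 clustered peaks), Peaxi162Scf00346 (16, 98) and Peaxi162Scf00000 (16, 52), on which the 35S list had 13, 17 and 22 clusters. Per length, Peaxi162Scf01209 (2.16 clusters per 100 kb, 3 gene IDs), Peaxi162Scf01134 (2.10 per 100 kb, 1 gene ID) and Peaxi162Scf00686 (1.99 per 100 kb, 1 gene ID) led. The rates of Peaxi162Scf01209 and Peaxi162Scf01134 rest on only 3 and 4 clusters, with the last peak ending at bases 138907 and 190415. The 35S list had 4, 1 and 7 clusters on these scaffolds, in the order named. Peaxi162Scf00686 had 11 clusters and 27.6 pODO1 peaks per 100 kb, against 7.62 over all scaffolds.

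Scaffolds with a cluster had fewer gene IDs per length, 2.79 per 100 kb, against 3.84 on those without. They were also longer, with the last peak ending at a median of 877166 bases, against 375374, and had more peaks, 8.08 against 5.87 per 100 kb. In quintiles of the scaffolds from the fewest to the most gene IDs per length, clusters numbered 0.273, 0.220, 0.180, 0.189 and 0.124 per 100 kb, and all pODO1 peaks 10.2, 8.52, 7.58, 6.91 and 4.77 per 100 kb. The percentage of peaks in clusters did not follow that order, at 9.12, 8.96, 7.93, 9.43 and 8.69. Clusters and peaks per length were both lowest in the quintile with most gene IDs per length. The number expected under even placement was not computed for each quintile, so the part of peak density in this order was not tested. Gene positions are not in the files, so the distance from a cluster to a gene was not analysed here.

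The scaffold part of the ID was the only link between clusters and transcripts. Genes on cluster-bearing scaffolds changed in odo1i corolla about as often as all genes. By edgeR's quasi-likelihood test with Benjamini-Hochberg adjustment, 81 of 12612 tested genes there had an adjusted p under 0.05 (0.642%), against 0.628% of all 17667 genes tested. Of the 81, 44 were higher in odo1i (0.349%, against 0.374% of all) and 37 were lower (0.293%, against 0.255%). On scaffolds with a cluster of 4 or more it was 42 of 6811 (0.617%). On the scaffolds searched that had no cluster it was 27 of 4835 (0.558%), with 20 higher (0.414%) and 7 lower (0.145%), and the difference between these sets was not tested. The number called and its split depended on the tool. DESeq2 called 781 genes on cluster-bearing scaffolds (5.94%, against 5.85% of all), 336 higher and 445 lower in odo1i, and limma-voom with library quality weights called 818 (6.49%, against 6.35% of all), 424 higher and 394 lower. The median log2 fold change was -0.03 on cluster-bearing scaffolds and -0.03 over all genes. The labels do not say that the libraries came from separate plants, so the p-values measure the spread between libraries, which may be technical. The count depended on single libraries. It was 3, 0 and 6 without odo1i replicates 1, 2 and 4, and 3, 18 and 307 without wild type replicates 1, 2 and 4. Without odo1i replicates 1 and 4 that was 0.0230% and 0.0461% of genes tested there, against 0.0219% and 0.0548% of all, and without wild type replicate 1 it was 0.0232%, against 0.0165%. The 18 were 0.137%, against 0.114% of all, and the 307 were 2.39%, against 2.42% of all. The count of 0 is by edgeR, with 1223 genes at an unadjusted p under 0.05, and no other tool was run on those 5 libraries.

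The gene IDs with the largest changes on such scaffolds are given by ID, since the files do not pair them with names. They were picked only among called genes whose odo1i and wild type values do not overlap. That separation was therefore set by the choice and is no result. Peaxi162Scf00408g00225, on a scaffold with 3 clusters and 10 clustered peaks, had 14.2, 20.98 and 20.6 CPM in odo1i replicates 1, 2 and 4, against 0.340, 1.86 and 0.686 CPM in wild type. Its log2 fold change was 4.28 ± 0.60 (SE; edgeR adjusted p = 0.0456). Peaxi162Scf00049g02410, on a scaffold with 4 clusters, had 195.1, 355.4 and 394.2 CPM in odo1i and 15.8, 14.9 and 20.3 CPM in wild type. Its log2 fold change was 4.21 ± 0.31 (edgeR adjusted p = 0.00747). Peaxi162Scf00100g01521, on a scaffold with 5 clusters, had 0.425, 0.300 and 0.0975 CPM in odo1i and 44.7, 83.8 and 42.7 CPM in wild type. Its log2 fold change was -7.68 ± 0.52 (edgeR adjusted p = 0.00747). Peaxi162Scf00968g00018, on a scaffold with 2 clusters, had 0 counts in each odo1i library, against 76, 227 and 209 counts in wild type (edgeR adjusted p = 0.0456). All 4 kept their direction in the 11 alternative fits. Peaxi162Scf00408g00225 lost its call without odo1i replicate 1, 2 or 4 or wild type replicate 1, and Peaxi162Scf00968g00018 without any of these or wild type replicate 2. Peaxi162Scf00049g02410 lost its call without odo1i replicate 2 or wild type replicate 1, and Peaxi162Scf00100g01521 without odo1i replicate 1 or 2. The highest adjusted p of each over these fits was 0.240 for Peaxi162Scf00408g00225, 0.191 for Peaxi162Scf00968g00018 and 0.0715 for Peaxi162Scf00049g02410 and Peaxi162Scf00100g01521.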

How the data were processed

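Corolla chromatin was immunoprecipitated with anti-GFP in 1 library per construct, and oligo-dT primed RNA was sequenced in 6 libraries, per the labels. MACS2, Bowtie2, TopHat2, HTSeq, DESeq2 and cutadapt are listed in the submitters' processing notes without version or role. The peak lists have the 10-column layout of MACS2 and no header. The fold enrichment (a ratio) and the −log10 p and −log10 q of each peak are the authors' deposited values, and no cut on them was added. For RNA the authors' table gives raw counts, whole reads per gene ID. The build is not given in the sources used here beyond the prefix Peaxi162 of scaffold names, nor are peak-calling settings, any pooling, and whether counting used strand. Overlapping, antisense or near-identical genes may share reads. Positions are counted from 1.

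The clustered peaks and the rules and lists used here were chosen with earlier results of these data known. All peaks were chained, wide ones included, and only narrow ones were kept and counted. In place of random shuffles, the number expected under even placement was computed from the spacings of points on each scaffold, from its first base to its last pODO1 peak end. Shares have 95% Wilson intervals and their differences Newcombe intervals, which cover counting error only. Clusters named are the 5 with most peaks, the 5 of highest mean fold enrichment and the 5 largest with every or no peak overlapping 35S. Gene IDs named are the 2 that rose most and the 2 that fell most by log2 fold change among called genes of at least 1 CPM on average whose groups do not overlap.

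Each RNA library held 18612881 to 20591367 counts over 35812 IDs. Genes were filtered with filterByExpr, scaled by TMM and compared, odo1i against wild type, by the two-sided quasi-likelihood test of edgeR 4.0.16 in R 4.3.3. CPM values are counts relative to the TMM-scaled library total. The SE of a log2 fold change was back-calculated, as its absolute value divided by the square root of the F statistic of that test. Alternatives used DESeq2 1.42.0 and limma 3.58.1. Peaks were handled with pandas 2.3.3, NumPy 2.4.6, SciPy 1.17.1 and matplotlib 3.10.9 in Python 3.11.15. The count test and the even-placement formula were tested on simulated data.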

Additional observations from a re-analysis of the deposited data

How the results depend on the processing

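The difference from other narrow peaks and the excess over even placement kept their direction under the alternatives run. The order of the 2 lists did not: 35S gave more clustered peaks than pODO1 as deposited and fewer under the limits on −log10 q and fold. The split of called genes on cluster-bearing scaffolds also turned. It was 44 higher and 37 lower in odo1i in the main fit, 336 and 445 with DESeq2 and 72 and 74 with the replicate block. It was 424 and 394 with limma-voom and 74 and 60 without the filter, and went either way with 1 library left out. The number of clustered pODO1 peaks, and of clustered 35S peaks, was 1560 and 2359 with summits at most 500 bases apart, 18763 and 23193 with 2000, 2753 and 4109 with at least 4 narrow peaks, 1138 and 1037 from peaks of −log10 q 5 or more, and 1960 and 780 from peaks of at least 4-fold. It stayed within 1.5 times with wide peaks removed first, no width limit or scaffolds reaching 200000 bases. The ratio to even placement was 3.30 with 500 and 3.17 with 2000 bases. The share of clustered pODO1 peaks overlapping 35S was 52.6% when the overlap had to cover 0.5 of the shorter peak, 46.5% with summits within 100 bases, 29.3% with 35S peaks of −log10 q 5 or more and 23.3% with those of at least 4-fold. It was 59.6% with 500 bases, 52.6% with 2000, 58.4% with at least 4 peaks, 68.1% from pODO1 peaks of −log10 q 5 or more, and 43.5, 48.8, 54.1, 57.3 and 75.4% in the quintiles of fold. The difference from other narrow peaks was 10.6, 11.0 and 6.20 points with close summits and the 2 limits on 35S peaks, 16.8, 12.1 and 15.9 with 500 bases, 2000 bases and 4 peaks, 10.3 with the limit on pODO1 q, and 10.6, 15.3 and 15.1 in the lowest, middle and highest quintiles. The share of clusters meeting a 35S cluster was 22.2% with 500 bases, 46.5% with 2000, 26.2% with 4 peaks and 19.2% with −log10 q 5 or more in both lists. Called genes on cluster-bearing scaffolds numbered 781 with DESeq2 (5.94%, against 5.85% of all), 818 with limma-voom and quality weights (6.49%, against 6.35%; chosen after seeing the data, as was leaving out Peaxi162Scf00346 and Peaxi162Scf00553), 134 without the filter (0.798%, against 0.757% of all genes tested), 0 to 307 with 1 library left out, and 42 on scaffolds with a cluster of 4 or more. The replicate block gave 146 (1.16%, against 1.10% of all), 71 of them among the 81. Same-numbered libraries correlated at 0.189, 0.0977 and 0.115 in their deviations from the group means, so they are not taken as pairs. For these changes the cause was not tested, beyond what fewer peaks, genes or libraries bring. The peak lists give no read depth, and with 1 library per construct their precision cannot be judged.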
